A study of Mus musculus with 12 samples.

Results

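The genes described are the protein-coding neighbours of Sh2b3 on mouse chromosome 5. They were taken by position alone, as the rows annotated protein coding that start between positions 119500000 and 124000000 of the mm10 build, and Sh2b3 itself (chr5:121815488-121837646) and Rpl6 were left out. The kidney table held 75 of them among 15361 genes, and 71 were tested among 14464. The F4/80+ table held 67 among 18145 genes, and 61 were tested among 15225. All 67 were also in the kidney table, so the neighbours were 75 genes in all.

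The libraries came from mice edited with CRISPR-Cas9 that carry 2 copies of the Arg allele or 2 copies of the Trp allele of a coding polymorphism in Sh2b3. All animals had received angiotensin II, a hormone that constricts vessels and raises blood pressure, for 4 weeks, so no library shows either genotype without it. Polyadenylated RNA was sequenced from Arg/Arg whole kidneys, Trp/Trp whole kidneys, and F4/80+ cells taken from other kidneys of each genotype on a Percoll gradient with anti-F4/80 microbeads, in 3 biological replicates for each of these 4 groups. Strain, age and the number of founder lines were not given in the sources used here, and counts per gene do not show the edited codon itself.

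Sh2b3 encodes LNK, an adaptor that restrains cytokine receptor signalling in blood cells. Its surroundings hold genes of very different kinds, among them Atxn2 (an RNA-binding protein), Aldh2 (the mitochondrial aldehyde dehydrogenase that clears acetaldehyde), Ptpn11 (the phosphatase SHP2 of growth factor signalling) and the Oas genes, whose products sense double-stranded RNA and switch on RNase L. In humans several, but not all, of the corresponding genes lie with SH2B3 in a block of variants that are inherited together. The effect of the SH2B3 variant is hard to separate from theirs by association alone. In edited mice the question is whether the neighbours of the edited gene differed in expression between the genotypes.

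Levels are in CPM, counts brought to a common library size with TMM scaling, and libraries are given in the order of replicates 1, 2 and 3. Library totals were 19.59 to 54.69 M counts in kidney (M for mega) and 35.88 to 51.60 M in F4/80+ libraries, but mitochondrial transcripts took 7.86 to 9.35% of the former and 70.1 to 83.6% of the latter, which left nuclear protein-coding genes 17.79 to 49.99 M and 6.879 to 11.14 M. The F4/80+ libraries carried a summed level of 12 macrophage markers of 9.23 to 44.2 CPM, against 2301 to 9604 CPM for 12 proximal tubule markers, so the label is used for the preparation and not for a pure cell type. Kidney Trp/Trp replicate 1 stood apart by its fat markers (119.8 CPM against 10.8 to 25.8 CPM in the other 5 libraries) and its B and plasma cell markers (79.4 against 3.95 to 5.23 CPM). F4/80+ Arg/Arg replicate 1 had macrophage markers at 27.96 CPM, where the other Arg/Arg libraries had 12.1 and 9.23 and the Trp/Trp libraries 26.3 to 44.2 CPM. In tissue libraries, fewer cells of a type and less RNA per cell cannot be told apart.

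In whole kidney no neighbour of Sh2b3 passed the test. edgeR's quasi-likelihood test with Benjamini-Hochberg adjustment called 0 of the 71 neighbours and 0% of all genes tested, DESeq2 called 0 neighbours and 0.0976% of all genes, and the authors' deposited table held 0 calls among neighbours. An unadjusted edgeR p under 0.05 was found for 2 neighbours, P2rx7 and Orai1, which is 2.82% against 5.71% of all genes. Both were higher in Trp/Trp and 0 were lower, where 3.68% of all genes were higher and 2.03% lower at this p. The genotypes' libraries did not overlap for 6 neighbours, or 8.45%, against 11.1% of all genes. Of these, P2rx7, Orai1, Adam1a and Adam1b were higher in every Trp/Trp library (5.61% of all genes were), and Ppp1cc and Vps29 were lower (5.53% of all genes).

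The neighbours' kidney values lay close to 0. Log2 fold changes, given throughout as Trp/Trp over Arg/Arg, were positive for 35 neighbours and negative for 36, where 50.6% of all genes were positive. The standard error beside each was worked back from the F statistic of edgeR's quasi-likelihood test, and the 95% intervals were built on it. They ran from -0.23 for Oas2 to 0.59 for P2rx7, with a median of -0.00034 for neighbours and 0.0021 for all genes. The median size without regard to sign was 0.065 for neighbours and 0.076 for all genes. For 56 neighbours, or 78.9%, the 95% interval of the fold change lay within 1.5-fold in either direction, against 75.5% of all genes. The intervals of P2rx7 and Orai1 lay wholly above 0, and those of all other tested neighbours included 0.

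**Figure D1:**
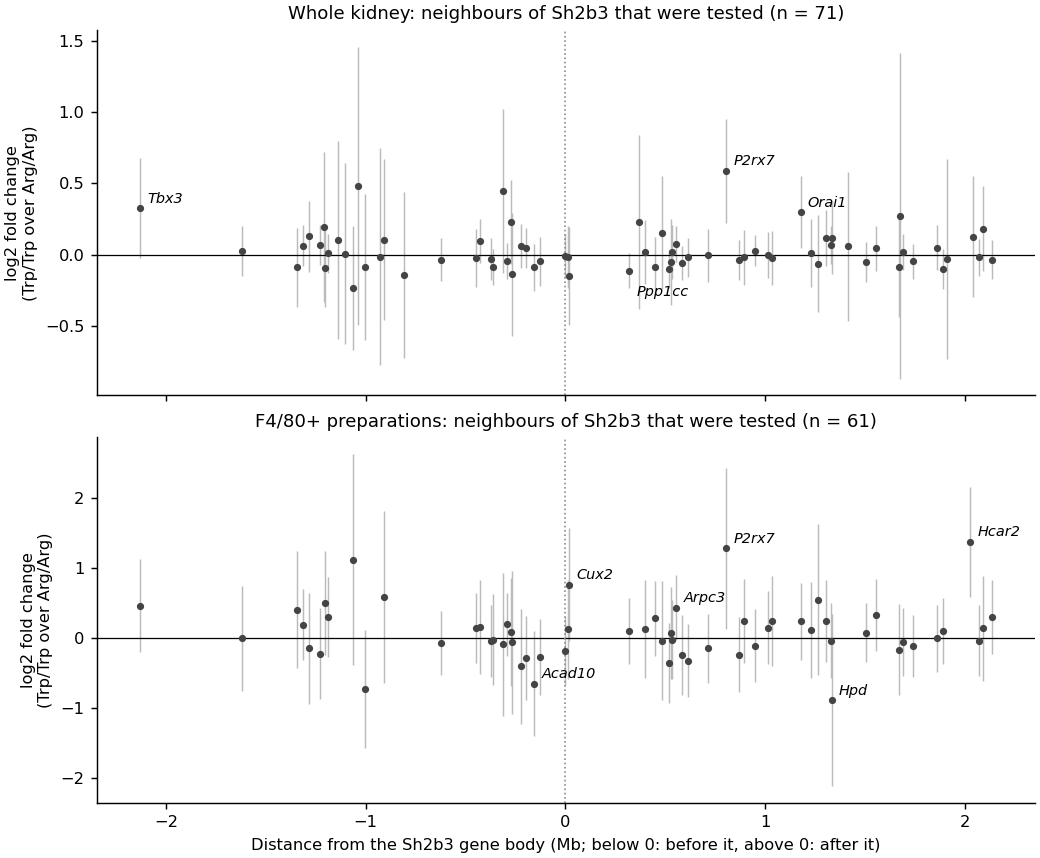
Log2 fold change of each tested neighbour (Trp/Trp over Arg/Arg, points) with its 95% interval (bars) by distance from the Sh2b3 gene body in Mb, in whole kidney (top, 71 genes) and F4/80+ preparations (bottom, 61 genes, wider scale). Points scatter about 0 on both sides of Sh2b3, with P2rx7 at 0.59 in kidney and 1.28 in F4/80+ libraries and Hcar2 at 1.38.

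The calcium, proton and purine channels and pumps of the window held both kidney genes with a small p. P2rx7 (ENSMUSG00000029468.17, chr5:122643911-122691432, 806 kb after Sh2b3) encodes an ATP-gated cation channel that macrophages use to start inflammasome signalling. It was at 2.69, 3.14 and 3.43 CPM in the Arg/Arg libraries and at 5.15, 4.30 and 4.48 CPM in the Trp/Trp libraries. Every Trp/Trp library lay above every Arg/Arg library, and Trp/Trp replicate 1 was highest. The log2 fold change was 0.59 ± 0.16 (95% interval 0.22 to 0.95), with an adjusted p of 0.843 in edgeR's quasi-likelihood test, and an adjusted p of 0.449 in the authors' deposited table. It was 0.50 to 0.67 when any 1 library was left out, and lowest without Trp/Trp replicate 1.

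Orai1 (chr5:123015074-123030456), the pore of the channel through which calcium enters when internal stores are empty, was at 13.3, 12.5 and 13.4 CPM in the Arg/Arg libraries and at 14.7, 14.9 and 18.9 CPM in the Trp/Trp libraries. The groups did not overlap, and Trp/Trp replicate 3 stood above the other Trp/Trp libraries. Its log2 fold change was 0.30 ± 0.11 (edgeR adjusted p = 0.843), and 0.18 without Trp/Trp replicate 3. The other 5 members of this group had kidney values of -0.04 to 0.23. Atp2a2, the calcium pump of the endoplasmic reticulum and the most abundant of them, was at 513 ± 26.9 CPM in Arg/Arg and 507 ± 20.7 CPM in Trp/Trp (SD, n = 3), with a log2 fold change of -0.02 ± 0.06. P2rx4, a second ATP-gated channel encoded next to P2rx7, was at 52.4 ± 1.61 CPM in Arg/Arg and 51.1 ± 3.16 CPM in Trp/Trp (SD, n = 3), a log2 fold change of -0.04 ± 0.06.

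Markers of several cell types lay in the same direction as P2rx7 and Orai1 in kidney, those of immune cells among them. The 12 macrophage markers summed to 144.2, 144.3 and 131.9 CPM in Arg/Arg and 229.2, 164.0 and 203.9 CPM in Trp/Trp kidneys, all 12 had a positive log2 fold change, and their median was 0.61. The 9 T and NK cell markers tested were all positive too, with summed levels of 6.69 to 9.42 CPM in Arg/Arg and 11.7 to 21.1 CPM in Trp/Trp kidneys. All tested fat markers (6, median 1.72), B and plasma cell markers (5, median 1.92) and endothelium markers (6, median 0.10) were positive as well, where 50.6% of all genes were. Trp/Trp replicate 1 stood far above the rest in the first 2 lists. B and plasma cell markers summed to 79.4, 4.28 and 4.53 CPM in Trp/Trp and 4.68, 5.23 and 3.95 CPM in Arg/Arg kidneys. Fat markers summed to 119.8, 25.8 and 23.4 CPM in Trp/Trp and 22.3, 22.6 and 10.8 CPM in Arg/Arg kidneys. Of the proximal tubule and distal nephron markers, 6 of 12 and 3 of 12 were positive. The part of any of these cells in the values of P2rx7 and Orai1 was not tested.

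P2rx7 has 2 promoter windows in RefSeq (GRCm38.p6), each taken here as the 250 bases before an annotated start, and the first is shown because it lies at the start of the gene whose p was smallest in kidney. It lies on the plus strand at chr5:122643677-122643926 and is written 5′ to 3′, with capitals marking the letters TGANTCA of the AP-1 motif. These letters, on either strand, were in 5 of 66 neighbour windows (7.58%) and in 6.75% of all 32851 windows, and the match is a description of the sequence only.
P2rx7: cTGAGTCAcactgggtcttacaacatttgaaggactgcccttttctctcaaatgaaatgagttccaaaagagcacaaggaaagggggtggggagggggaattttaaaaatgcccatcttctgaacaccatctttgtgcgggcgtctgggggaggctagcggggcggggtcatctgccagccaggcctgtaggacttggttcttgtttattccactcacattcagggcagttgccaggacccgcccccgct
The second window of P2rx7, at chr5:122650133-122650382, and the window of Orai1, at chr5:123014824-123015073, held no match to TGANTCA, to the interferon response element (GAAA, any 2 bases, GAAA) or to the PU.1 motif (GAGG followed directly by AAGT). The PU.1 letters were in 1 of 66 neighbour windows (1.52%), that of Hectd4, and in 2.44% of all windows. RefSeq windows were found for 55 of the 75 neighbours.

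The genes closest to Sh2b3 had small kidney values. On the side before it, Atxn2 (chr5:121711337-121816493) overlaps the Sh2b3 gene model by 1006 bases on the opposite strand. Atxn2 was at 74.2, 77.4 and 82.0 CPM in the Arg/Arg libraries and at 71.7, 79.3 and 81.6 CPM in the Trp/Trp libraries. The groups overlapped in full, and the log2 fold change was -0.01 ± 0.07 (95% interval -0.16 to 0.15, edgeR adjusted p = 0.993). Whether strand was used in counting is not given in the sources used here, so reads from the shared bases cannot be assigned to either gene with certainty. Brap, a ubiquitin ligase that limits Ras signalling, Acad10 and Acad12, of the acyl-CoA dehydrogenase family, and Mapkapk5, a kinase of the MAP kinase cascades, had log2 fold changes of -0.05 ± 0.08, -0.09 ± 0.07, 0.05 ± 0.06 and -0.14 ± 0.19. Aldh2, the most abundant neighbour in kidney, was at 1112, 1142 and 1219 CPM in the Arg/Arg libraries and at 1140.2, 1196 and 1298 CPM in the Trp/Trp libraries. Its groups overlapped, with the highest value in Trp/Trp replicate 3, and its log2 fold change was 0.07 ± 0.07 (95% interval -0.09 to 0.22). Per kb of exon it stood at 231 CPM over all 6 libraries, against a median of 3.76 CPM per kb over the 75 neighbours.

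On the side after Sh2b3, Pheta1, an endosome protein, had -0.02 ± 0.10 and Cux2, a homeobox transcription factor, had -0.15 ± 0.15 on the log2 scale. Ppp1cc, a catalytic subunit of protein phosphatase 1, was at 101, 101 and 106 CPM in the Arg/Arg libraries and at 96.6, 97.1 and 90.8 CPM in the Trp/Trp libraries. Each Trp/Trp library was lower than each Arg/Arg library, by a small margin, and the log2 fold change was -0.11 ± 0.05 (edgeR adjusted p = 0.843). Hvcn1, the voltage-gated proton channel of phagocytes, Tctn1, of the ciliary transition zone, and Pptc7, a mitochondrial phosphatase, had 0.23 ± 0.27, 0.02 ± 0.10 and -0.08 ± 0.09. The value of Hvcn1 turned to -0.10 without Trp/Trp replicate 1. Ptpn11, farther out before Sh2b3, was at 141 ± 6.12 CPM in Arg/Arg and 137 ± 9.91 CPM in Trp/Trp (SD, n = 3), with -0.03 ± 0.07.

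Kidney values were also split by distance from Sh2b3. Of the 35 tested neighbours within 1 Mb, 1 had an unadjusted p under 0.05 and 5 (14.3%) had groups that did not overlap, against 11.1% of all genes, and of the 36 farther out, 1 and 1 (2.78%). The median size without sign was 0.059 within 1 Mb and 0.069 beyond. An unadjusted p under 0.05 was held by 2.86% of neighbours within 1 Mb, 2.78% of those beyond and 5.71% of all genes. The 31 neighbours before Sh2b3 included 0 at this p and the 40 after it 2 (5%). The windows of equal width directly before and after held 2 of 38 and 1 of 31 tested genes at this p, and the rest of the chromosome 34 of 817 (4.16%). Groups did not overlap for 3 (7.89%), 5 (16.1%) and 71 (8.69%) of these genes. These counts are descriptions, and the differences between them were not tested.

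**Figure D2:**
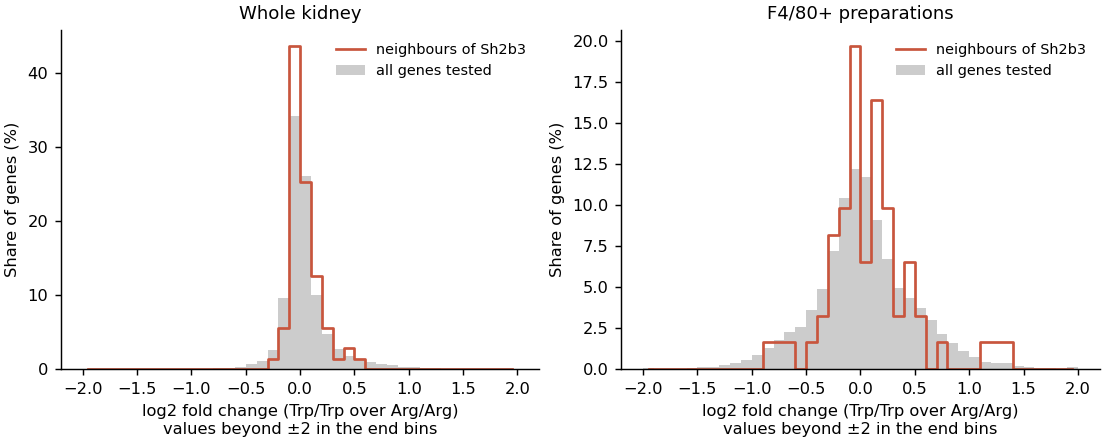
Share of genes (percent) by log2 fold change (Trp/Trp over Arg/Arg, bins of 0.1, values beyond ±2 in the end bins) for the neighbours (red line) and all genes tested (grey bars) in whole kidney and F4/80+ preparations. The neighbours lie within the spread of all genes in both, between -0.23 and 0.59 in kidney and between -0.88 and 1.38 in F4/80+ preparations.

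The other kidney neighbours with a small p or groups that did not overlap had modest values. Vps29, a subunit of the retromer that sorts endosomal cargo, was at 118, 119 and 118 CPM in the Arg/Arg libraries and at 105, 110.0 and 118 CPM in the Trp/Trp libraries. The Arg/Arg libraries were nearly equal, with Trp/Trp replicate 3 just below them and Trp/Trp replicate 1 lowest, and the log2 fold change was -0.10 ± 0.06. Adam1a, of the ADAM family known from sperm, was at 4.45 ± 0.286 CPM in Arg/Arg and 5.23 ± 0.212 CPM in Trp/Trp (SD, n = 3), a log2 fold change of 0.23 ± 0.13. Adam1b, of the same family, was at 1.14 ± 0.264 CPM in Arg/Arg and 1.56 ± 0.0830 CPM in Trp/Trp (SD, n = 3), a log2 fold change of 0.45 ± 0.25. Both lie within or across Tmem116 on the opposite strand, and Adam1a also shares 20445 bases with Mapkapk5 on its own strand, so their counts are uncertain. Tbx3, a T-box transcription factor at the far edge of the window, was at 8.11, 8.13 and 10.5 CPM in the Arg/Arg libraries and at 13.4, 10.2 and 9.80 CPM in the Trp/Trp libraries. Its groups overlapped, with Trp/Trp replicate 1 highest, and its 0.33 ± 0.15 became 0.17 without that library. Ccdc62, a coiled-coil protein, Erp29, a chaperone of the endoplasmic reticulum, and Rsrc2 had 0.18 ± 0.13, -0.08 ± 0.05 and -0.10 ± 0.06.

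By role, edgeR called 0 genes in every kidney group. The 8 tested genes of mitochondrial and amino acid metabolism had values of -0.09 to 0.13, and the interval of all 8 lay within 1.5-fold. The same held for all 10 genes of RNA and protein synthesis (-0.10 to 0.07) and all 7 of vesicles, lysosomes and actin (-0.10 to 0.08). Of 9 kinase, phosphatase and ubiquitin genes 3 were positive, of 6 chromatin and transcription genes 3, of 5 cell division genes 2 and of 7 cilium genes 5, where 50.6% of all genes were.

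The 5 Oas genes tested in kidney had wide intervals, none of them within 1.5-fold. Oas2, Oas1c, Oas1a, Oas1g and Oas3 had mean levels of 2.61, 2.89, 2.15, 0.666 and 0.466 CPM. Their log2 fold changes were -0.23 ± 0.19, -0.09 ± 0.23, 0.11 ± 0.25, -0.01 ± 0.34 and 0.48 ± 0.43, with overlapping groups in each case, and Oas1f was below the level needed for a test. The Oas1 genes are related by sequence, so reads may be split between them, which was not measured. Interferon-stimulated genes outside the window, which the same signal switches on, were positive in 12 of 22 cases in kidney (50.6% of all genes were), with a median of 0.02 and 0 called by edgeR.

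The interferon response element is printed for the 4 Oas genes whose RefSeq window holds the letters GAAA, any 2 bases and GAAA on either strand, because it is the feature these neighbours share. Each stretch is 30 bases of GRCm38.p6 on the minus strand, 5′ to 3′, with the matching bases in capitals. Oas1a at chr5:120907526-120907555, Oas1g at chr5:120887614-120887643 and Oas1c at chr5:120812609-120812638 hold 2 overlapping matches each, Oas1c on the other strand, and Oas3 at chr5:120777715-120777744 holds 1. The first matching base lies 20, 18 and 75 bases before the RefSeq start of Oas1a, Oas1g and Oas3, and 114 before that of Oas1c. The Oas1c stretch runs into the annotated span of Oas1b (chr5:120812635-120824163). That match is therefore not particular to Oas1c, and which gene it serves was not tested.
Oas1a: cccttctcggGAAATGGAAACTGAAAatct
Oas1g: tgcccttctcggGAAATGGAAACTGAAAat
Oas1c: gaaatgggacTTTCAGTTTCCATTTCccgg
Oas3: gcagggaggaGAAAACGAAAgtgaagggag
The letters were in 7 of 66 neighbour windows (10.6%) and in 2.98% of all windows. The other windows with a match belonged to Fam216a, Gpn3 and Psmd9, and the Oas1 copies are related by sequence, so these are not independent cases.

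In F4/80+ libraries no neighbour passed the test either. edgeR's quasi-likelihood test called 0 of 61 neighbours and 0% of all genes, DESeq2 called 0 neighbours and 0.0772% of all genes, and the authors' deposited table held 0 calls among the 22 neighbours to which it gave an adjusted p. Hcar2, P2rx7, Cux2 and Oas2 had no adjusted p from DESeq2 here or from the authors, so neither could call them. The edgeR p was under 0.05 before adjustment for Hcar2 and P2rx7, or 3.28% of neighbours against 8.04% of all genes, and both were higher in Trp/Trp (4.43% of all genes) and 0 lower (3.61% of all genes). Groups did not overlap for 5 neighbours, or 8.20%, against 10.6% of all genes. Hcar2, Cux2, Arpc3 and Bcl7a were higher in every Trp/Trp library (6.43% of all genes), and Clip1 was lower (4.21%). No neighbour had groups that did not overlap in both sample types. Over all genes the share was 11.1% in kidney and 10.6% in F4/80+ libraries, and the share in both was not counted.

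The spread was wider than in kidney. The common biological coefficient of variation was 0.28, against 0.101 in kidney, and the 95% interval lay within 1.5-fold in either direction for 10 neighbours (16.4%) and 10.2% of all genes. Values were positive for 32 neighbours and negative for 29 (51.1% of all genes were positive), with a median of 0.08 against 0.0093 for all genes. The median size without sign was 0.19 for neighbours and 0.24 for all genes. For most neighbours the interval therefore took in a change of 1.5-fold.

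Hcar2 (chr5:123863570-123865499, 2026 kb after Sh2b3), the receptor for niacin and the ketone body beta-hydroxybutyrate on fat cells, macrophages and neutrophils, had the smallest p. It was at 0.684, 0.909 and 0.731 CPM in the Arg/Arg libraries and at 2.15, 1.27 and 2.64 CPM in the Trp/Trp libraries. Every Trp/Trp library was above every Arg/Arg library, and Trp/Trp replicate 2 was the lowest of its group. The log2 fold change was 1.38 ± 0.36 (95% interval 0.60 to 2.16, edgeR adjusted p = 0.605), and 1.14 to 1.62 when any 1 library was left out. In kidney Hcar2 was below the level needed for a test, at 0.0521 to 0.637 CPM.

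P2rx7 in F4/80+ libraries was at 0.405, 0.331 and 0.188 CPM in the Arg/Arg libraries and at 0.367, 1.09 and 0.789 CPM in the Trp/Trp libraries. Trp/Trp replicate 1 lay below Arg/Arg replicate 1, so the groups overlapped, and Trp/Trp replicate 2 was highest. Its log2 fold change was 1.28 ± 0.52 (edgeR adjusted p = 0.606) and 0.90 without Trp/Trp replicate 2 (adjusted p = 0.905). The macrophage markers summed to 27.96, 12.1 and 9.23 CPM in Arg/Arg and 26.3, 35.0 and 44.2 CPM in Trp/Trp libraries, and all 11 tested had a positive value (median 1.29). Their part in the values of Hcar2 and P2rx7 was not tested. Of the fat markers, 0 of 7 were found in the F4/80+ table used here.

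**Figure D3:**
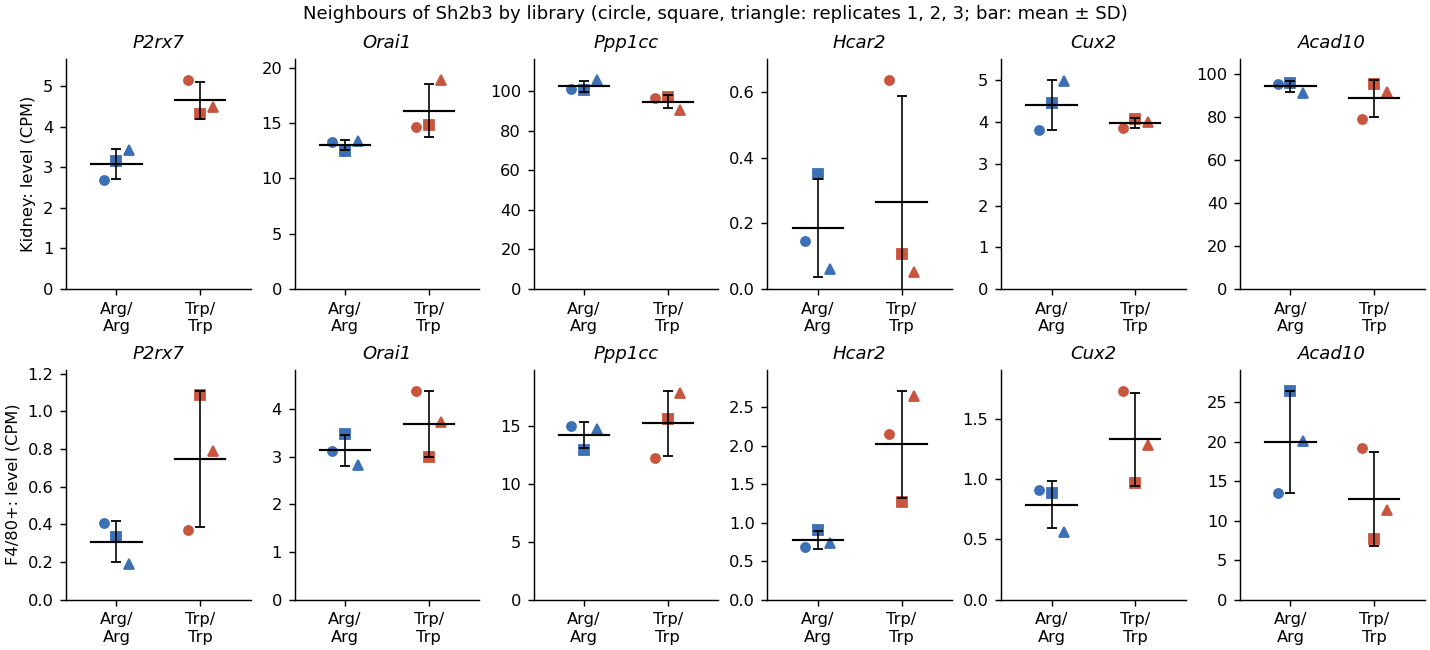
Level in CPM (linear axes from 0) of P2rx7, Orai1, Ppp1cc, Hcar2, Cux2 and Acad10 in every library of whole kidney (top) and F4/80+ preparations (bottom), by genotype, with the mean and SD of 3 libraries (bars). P2rx7 and Orai1 separate by genotype in kidney and overlap in F4/80+ preparations, Hcar2 and Cux2 separate in F4/80+ preparations and overlap in kidney, and Acad10 overlaps in both.

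Among the closest genes in F4/80+ libraries, Cux2 was at 0.912, 0.882 and 0.564 CPM in the Arg/Arg libraries and at 1.73, 0.969 and 1.28 CPM in the Trp/Trp libraries. All Trp/Trp libraries were above all Arg/Arg libraries, narrowly for Trp/Trp replicate 2, and the log2 fold change was 0.76 ± 0.37 (edgeR adjusted p = 0.622) and 0.50 without Trp/Trp replicate 1. Atxn2 was at 28.3, 36.5 and 36.8 CPM in the Arg/Arg libraries and at 33.7, 27.0 and 28.4 CPM in the Trp/Trp libraries, with overlapping groups and a log2 fold change of -0.19 ± 0.22. Pheta1, Ppp1cc, Tctn1, Pptc7, Brap and Mapkapk5 had 0.13 ± 0.32, 0.10 ± 0.22, 0.13 ± 0.32, 0.29 ± 0.24, -0.27 ± 0.25 and -0.06 ± 0.46. Rad9b, a checkpoint clamp protein that takes the place of the untested Hvcn1 among the nearest genes, had -0.04 ± 0.39, and Ptpn11 had -0.07 ± 0.21. Within 1 Mb of Sh2b3, 1 of 32 tested neighbours had an unadjusted p under 0.05 and 2 (6.25%) had groups that did not overlap, and beyond it 1 and 3 (10.3%) of 29. Over all genes the shares were 8.04% at this p and 10.6% without overlap.

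The metabolic neighbours had mostly negative values in F4/80+ libraries, with 6 of 8 below 0 and 0 called by edgeR. Acad10 was at 13.5, 26.4 and 20.1 CPM in the Arg/Arg libraries and at 19.2, 7.66 and 11.3 CPM in the Trp/Trp libraries. The groups overlapped, with Arg/Arg replicate 2 highest and Trp/Trp replicate 2 lowest, and the log2 fold change was -0.65 ± 0.34 (edgeR adjusted p = 0.643). Hpd, an enzyme of tyrosine breakdown, was at 5.32, 13.3 and 7.68 CPM in the Arg/Arg libraries and at 9.87, 1.54 and 2.74 CPM in the Trp/Trp libraries, a log2 fold change of -0.88 ± 0.56 (edgeR adjusted p = 0.712). Without Trp/Trp replicate 1 it was -2.07 (edgeR adjusted p = 0.34). Aldh2 was at 30.01, 66.67 and 52.38 CPM in the Arg/Arg libraries and at 58.22, 21.96 and 32.72 CPM in the Trp/Trp libraries, a log2 fold change of -0.40 ± 0.37 that was -0.89 without the same library. In all 3 genes Arg/Arg replicate 2 was the highest library and Trp/Trp replicate 2 the lowest. The summed proximal tubule markers had the same highest and lowest library, at 3680, 9604 and 8007 CPM in Arg/Arg and 5041, 2301 and 4229 CPM in Trp/Trp libraries, and 0 of 12 had a positive log2 fold change (median -0.94). Of these 12 markers, 7 had an unadjusted edgeR p under 0.05 (8.04% of all genes) and 4 had groups that did not overlap (10.6% of all genes). DESeq2 called 3 of them (0.0772% of all genes) and edgeR 0. Without Trp/Trp replicate 2 the log2 fold changes of Acad10, Hpd and Aldh2 were -0.39, -0.47 and -0.13, and that of Acad10 was -1.10 without Trp/Trp replicate 1. The part of tubule RNA in the values of these 3 genes was not tested. Acad12 and Sdsl had -0.28 ± 0.27 and 0.41 ± 0.38.

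**Figure D4:**
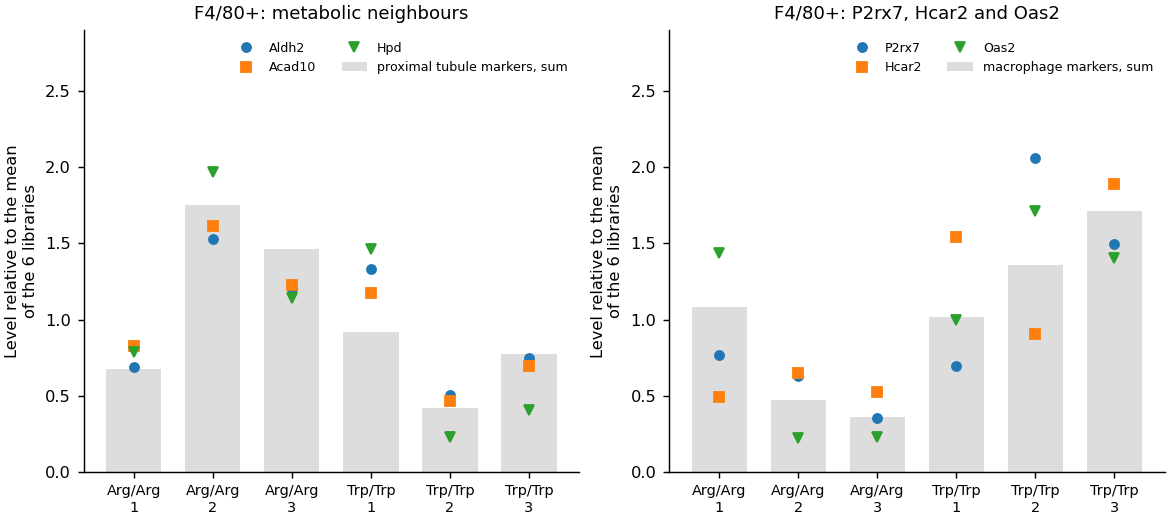
Level in each of the 6 F4/80+ libraries relative to the mean of the 6 (linear axis from 0), for Aldh2, Acad10 and Hpd with the summed proximal tubule markers (left, bars) and for P2rx7, Hcar2 and Oas2 with the summed macrophage markers (right, bars). Aldh2, Acad10 and Hpd share their highest library (Arg/Arg replicate 2) and lowest library (Trp/Trp replicate 2) with the tubule markers.

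Of the other role groups in F4/80+ libraries, all 6 chromatin and transcription genes had a positive value and all 4 cell division genes a negative one, where 51.1% of all genes were positive, with 0 of either called by edgeR and 0 with an unadjusted p under 0.05. In the same libraries all 12 distal nephron markers had a positive log2 fold change (median 0.62, 6 at an unadjusted p under 0.05), with summed levels of 1196 to 2480 CPM in Arg/Arg and 2182 to 3452 CPM in Trp/Trp, and their part in these directions was not tested. The chromatin genes ran from 0.08 for Bcl7a, a subunit of the SWI/SNF remodelling complex, to 0.76 for Cux2. Tbx3 was at 1.65, 1.96 and 1.46 CPM in the Arg/Arg libraries and at 3.08, 1.92 and 1.97 CPM in the Trp/Trp libraries with overlapping groups and a log2 fold change of 0.47 ± 0.30, which was 0.19 without Trp/Trp replicate 1. Arpc3, a subunit of the actin-branching Arp2/3 complex, was at 10.2, 11.5 and 10.5 CPM in the Arg/Arg libraries and at 15.6, 11.8 and 16.1 CPM in the Trp/Trp libraries. Its groups did not overlap, with Trp/Trp replicate 2 just above the Arg/Arg libraries, and its log2 fold change was 0.44 ± 0.21 (edgeR adjusted p = 0.622). Clip1, which caps growing microtubule ends, was at 28.2 ± 1.52 CPM in Arg/Arg and 26.1 ± 0.456 CPM in Trp/Trp (SD, n = 3), with -0.11 ± 0.20, and Rita1, a tubulin-binding regulator of Notch signalling, had 0.50 ± 0.34.

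Few reads reached the Oas genes in F4/80+ libraries, where 3 could be tested. Oas2 was at 0.532, 0.0827 and 0.0835 CPM in the Arg/Arg libraries and at 0.367, 0.633 and 0.518 CPM in the Trp/Trp libraries. Arg/Arg replicate 1 lay among the Trp/Trp libraries and the other Arg/Arg libraries were far below, so that the log2 fold change of 1.12 ± 0.69 (edgeR adjusted p = 0.703) was 2.56 without Arg/Arg replicate 1 (adjusted p = 0.0988) and 0.70 without Arg/Arg replicate 3. Oas1c and Oas1a had -0.73 ± 0.38 and 0.59 ± 0.56 with overlapping groups, and Oas3 and Oas1g were below the level needed for a test. Interferon-stimulated genes outside the window were positive in 18 of 21 cases, where 51.1% of all genes were, with a median of 0.53 and 0 called. Of these 21 genes, 2 (9.52%) had an unadjusted edgeR p under 0.05, against 8.04% of all genes. Groups did not overlap for 4 (19%), against 10.6% of all genes.

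The genotype effects were then compared between sample types by an interaction term over 13507 genes. The edgeR fit used a single dispersion per gene for both sample types, although their common biological coefficients of variation differed (0.101 in kidney, 0.28 in F4/80+ libraries). Its standard errors and p-values therefore average over unlike spreads. edgeR's quasi-likelihood test called 0 of 67 neighbours and 0% of all genes, and DESeq2 called 0 neighbours and 0.0509% of all genes. An unadjusted p under 0.05 was found for Cux2, or 1.49% of neighbours against 6.86% of all genes. The effect on Cux2 was 0.90 ± 0.36 log2 units more positive in F4/80+ libraries than in kidney (edgeR adjusted p = 0.706). For P2rx7 the same difference was 0.70 ± 0.53 (edgeR adjusted p = 0.82), so its larger F4/80+ value was not shown to differ from the kidney value. Oas2 was called by this test without F4/80+ Arg/Arg replicate 1, with a difference of 2.84 ± 0.53 (edgeR adjusted p = 0.0225, 545 of 13583 genes called), and was not called with all 12 libraries, where it was 1.35 ± 0.70 (edgeR adjusted p = 0.706).

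Levels of the neighbours were also set side by side between the sample types, as a description with no test, over CPM of the nuclear protein-coding genes that both tables share. All 6 kidney libraries lay above all 6 F4/80+ libraries for 29 of 67 neighbours (43.3%, against 26.8% of all 13733 such genes), and all 6 F4/80+ libraries lay above for 8 (11.9%, against 15%). Aldh2 was at 1299 ± 67.9 in kidney and 221 ± 72.9 in F4/80+ libraries (SD, n = 6), and Hpd at 120.0 ± 14.6 in kidney and 33.6 ± 20.0 in F4/80+ libraries (SD, n = 6). Hcar2 went the other way, at 0.251 ± 0.260 in kidney and 7.35 ± 4.38 in F4/80+ libraries (SD, n = 6), as did Atxn2, at 85.2 ± 3.60 in kidney and 164 ± 8.14 in F4/80+ libraries, Tmem116, at 69.8 ± 1.69 in kidney and 134 ± 20.7 in F4/80+ libraries, and Clip1, at 97.2 ± 3.91 in kidney and 142 ± 13.2 in F4/80+ libraries. P2rx7, at 4.25 ± 1.08 in kidney and 2.88 ± 2.08 in F4/80+ libraries (SD, n = 6), overlapped between the sample types. Scaled to all counts of each table instead, which includes the mitochondrial counts, 64 of 67 were higher in kidney and 0 in F4/80+ libraries. All 29 that were higher in kidney on the nuclear scale were so on this scale too. Of the 8 that were higher in F4/80+ libraries, 6 were then higher in kidney and 2 overlapped.

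**Figure D5:**
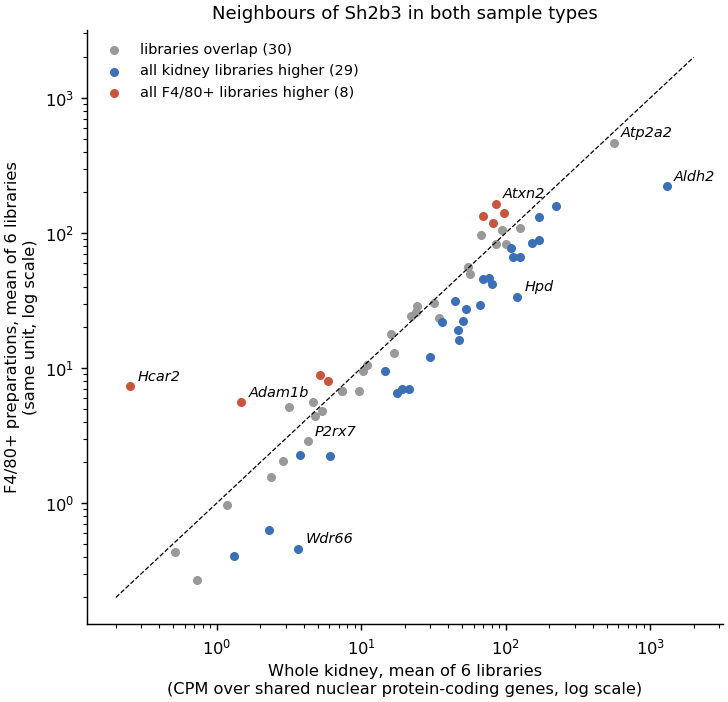
Mean level of each of 67 neighbours in 6 whole kidney libraries (horizontal) and 6 F4/80+ libraries (vertical), in CPM over the nuclear protein-coding genes that both tables share, on log axes with the line of equality dashed. Colours mark the 29 genes higher in all kidney libraries, the 8 higher in all F4/80+ libraries and the 30 whose libraries overlap, with Aldh2 far below the line and Hcar2 far above it.

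Below the level needed for a test were Sds, Oas1f, Hcar2 and Gm43518 in kidney and Oas3, Oas1g, Rph3a, Hvcn1, Wdr66 and Kntc1 in F4/80+ libraries, for which a difference between genotypes was not assessed at this depth. Gene models of 29 genes overlapped in 18 pairs, 14 of them on opposite strands, Sh2b3 and Atxn2 included.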

How the data were processed

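Libraries were matched to count columns by the short name in their titles, and groups were taken from the labels. The deposited tables, 1 for each sample type, held raw counts per gene from the authors, with their DESeq2 output beside them: a log2 fold change and its ratio, p-value and adjusted p-value, score columns (standard error and Wald statistic) and a signal column (size-factor-scaled mean counts). In kidney the authors' log2 values had Arg/Arg in the numerator and were turned here. Per the submitters' processing notes, STAR, DRAGEN and DESeq2 were used with mm10, and their annotation release is not given in the sources used here. All 75 and 67 neighbours had the same coordinates in GENCODE vM21, whose exons gave the lengths.

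Counts were filtered with filterByExpr (minimum count 10, minimum total 15), scaled by TMM and compared with the quasi-likelihood test of edgeR 4.0.16 in R 4.3.3, with Benjamini-Hochberg adjustment over all genes tested and a threshold of 0.05. Alternatives were DESeq2 1.42.0, RLE factors, no filter, a replicate block, no mitochondrial genes, a 1 Mb window and leaving out each library. Figures were made in Python 3.11.15 with matplotlib 3.10.9. The procedure was tested on simulated data. Named genes were the 6 nearest tested neighbours on each side, the 10 of smallest p in each table, any with groups that did not overlap in both tables or called by edgeR, DESeq2 or the authors, and Aldh2, Ptpn11 and the Oas genes; others named in the text were chosen after their values were seen. The members and lists were chosen with earlier results of these data known. The labels call the libraries biological replicates without naming animals, so p-values measure the spread between these libraries. No batch was given in the labels. Replicate numbers were not used to pair the libraries in the main fits.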

Additional observations from a re-analysis of the deposited data

Results flagged for a closer look

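Oas1b, annotated as a polymorphic pseudogene, lies outside the protein-coding neighbours and so in rows that the comparisons above do not use. Of the tested rows of this kind in F4/80+ libraries, those higher in every Trp/Trp library were marked, and those lower were not. Oas1b was thus picked by the values given next. In F4/80+ libraries Oas1b was at 0.380, 0.220 and 0.292 CPM in Arg/Arg and at 0.630, 0.771 and 0.469 CPM in Trp/Trp, so the groups did not overlap. The same held in this direction for 6.43% of all genes. Its log2 fold change was 1.06 ± 0.46 (edgeR adjusted p = 0.609), which did not pass. It rests on 8 to 39 counts in a library, and its reads may be shared with the other Oas1 copies, which was not measured.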

How the results depend on the processing

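With all libraries of a table kept, 0 neighbours were called in either table or by the interaction under edgeR with TMM or RLE factors, without the filter, without mitochondrial genes (tables only), with the replicate block, and under DESeq2. In F4/80+ libraries DESeq2 gave no adjusted p to some neighbours, Hcar2 and P2rx7 among them, so its 0 calls there do not cover those genes. Leaving out any 1 library gave 0 called neighbours in both tables and 0 to 1 by the interaction. At an unadjusted p under 0.05, 1 Mb as the window left 1 of the 2 neighbours in kidney and 1 of 2 in F4/80+ libraries, where it left 2 of the 5 whose groups did not overlap. The count at this p in kidney was 2 to 5 without 1 library. It was 5 of 72 neighbours without Arg/Arg replicate 3, with 920 of all 14650 genes. In F4/80+ libraries it was 1 to 7 of 61 neighbours. It was 7 when Trp/Trp replicate 1 was left out, with 1768 of all 15534 genes. Leaving out Arg/Arg replicate 1 gave 4, with 2788 of all 15932 genes. It was 1 for Arg/Arg replicate 2, Arg/Arg replicate 3 or Trp/Trp replicate 3. Over all genes tested there it fell to 364 when Arg/Arg replicate 3 was left out and reached 2788 for Arg/Arg replicate 1, against 1224. For the interaction it was 0 to 11, namely 11 for leaving out F4/80+ Trp/Trp replicate 1, 6 for Arg/Arg replicate 1 there, 3 for Trp/Trp replicate 2 there, 2 when kidney Trp/Trp replicate 1 or 2 or F4/80+ Arg/Arg replicate 2 was left out, and 0 when replicate 3 of the Arg/Arg group was left out in either sample type. DESeq2 gave 4, against 1, and 1220 over all genes, against 926. In the settings with 11 and 6 neighbours the counts over all genes were 1944 and 2797. Fewer libraries overlap less often, and groups did not overlap for 10 to 16 neighbours in kidney (13.9 to 22.5%, against 17.9 to 23.8% of all genes) and 6 to 18 in F4/80+ libraries (9.84 to 29.5%, against 13.7 to 33.6%). Plain CPM without TMM, added after seeing the data, gave 7 in each, with 1490 of all genes in kidney and 1568 in F4/80+ libraries. The labels do not say that replicate numbers pair the libraries. Same-numbered libraries correlated in their deviations from group means at -0.0767 to -0.0112 in kidney and -0.486 to 0.18 in F4/80+ libraries. Differently numbered ones did so at -0.125 to 0.114 and -0.145 to 0.483. Deviations centred within groups of 3 constrain each other, so these values cannot settle whether libraries were paired. The replicate block left 1 neighbour at an unadjusted p under 0.05 in F4/80+ libraries (700 of all genes against 1224) and 2 in kidney (691 of all genes against 826). Sample types did not overlap for 37 neighbours (29 higher in kidney, 8 in F4/80+ libraries), and for 64, all higher in kidney, when scaled to all counts, 29 of which were also higher in kidney on the nuclear scale. The causes of these shifts were not tested. Among named genes the sign turned in 10 of 27 genes in kidney and 6 of 22 in F4/80+ libraries under some alternative, none of them called.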

Other observations

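The F4/80+ table also held 29 rows in the same window that are not protein coding, among them long noncoding RNAs, pseudogenes and transcripts of unclear status. Of these, 16 could be tested, 8 with a positive and 8 with a negative log2 fold change, 0 were called by edgeR (smallest adjusted p 0.609), 1 had an unadjusted p under 0.05 and 2 had groups that did not overlap, where 8.04% and 10.6% of all genes did. The 2 without overlap were Oas1b and Gm43571, a transcript within the span of Atxn2, which was at -0.65 ± 0.39 (edgeR adjusted p = 0.694), lower in Trp/Trp.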
